A study of Rattus norvegicus with 16 samples.

Results

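Notch signalling passes between touching cells, and the genes described here are its ligands Jag1, Jag2 and Dll1, its receptors Notch1, Notch2, Notch3 and Notch4, and its transcriptional targets Hes1, Hey1 and Heyl. They are 10 of the 26689 genes in the deposited table of read counts and were chosen by name alone. Dll1 carried no gene name in that table and was found through its KEGG annotation, while the other 9 were found by symbol. The cells were mesenchymal stromal cells (MSCs) grown from the bone marrow of 4 adult female wild-type Sprague-Dawley rats (rats 2, 3, 4 and 8), sorted as CD29+/CD45-, and used at passage 4. Cells of each rat were kept for 24 h in each of 4 media, which gave 16 RNA sequencing libraries with n = 4 per condition.

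D10, the control, was DMEM with fetal bovine serum and gentamycin. M0CM was the medium of unpolarized macrophages and M1CM the medium of inflammatory macrophages. Pol1 was, by its label, D10 with 100 ng/ml LPS and 20 ng/ml interferon gamma, the agents used to polarize the macrophages. The study's methods instead describe the polarization medium as RPMI with M-CSF and another dose of interferon gamma, so the base of Pol1 is uncertain. Both macrophage media rested on RPMI, so a comparison with D10 also compares base media, and M1CM was collected from cultures that had held LPS and interferon gamma. The share of the macrophages' own products in an M1CM result therefore cannot be told apart from the added agents by comparison with D10 alone. In the methods, the last medium of the inflammatory macrophages also held M-CSF, and that of the unpolarized ones is named without it. A comparison of M1CM with M0CM may thus also compare M-CSF.

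A Notch ligand on one cell binds a receptor on its neighbour and exposes the receptor to cleavage, first by ADAM proteases and then by gamma-secretase. The freed intracellular domain enters the nucleus and joins the DNA-binding protein RBPJ and a Mastermind coactivator, and the complex switches on HES and HEY genes, which encode repressors. In mouse bone marrow, Notch signalling is known to hold mesenchymal progenitors back from becoming osteoblasts, and in vessel walls Notch3 and Jag1 are known for their part in mural cells, the pericytes and smooth muscle cells.

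The RBPJ complex reads a short DNA word, and in mouse it is known to bind the Hes1 promoter. The 250 bases before the start of 4 genes are shown: Hes1 (the target with the steepest tested fall among those with counts in every condition), Notch4 and Dll1 (a receptor and a ligand that rose) and Jag1 (the main ligand, which fell). Notch3 is not shown, although it fell more in M1CM than Jag1 (log2 change -3.39 against -2.14). Capitals mark the RBPJ core TGGGAA or its reverse complement TTCCCA. Among the 9 Notch genes with a window, only Hes1, Notch4 and Dll1 held it in these 250 bases, so the genes shown over-represent it. The sequences are those of RefSeq on GRCr8, written 5′ to 3′ in the direction of the gene, and each of these genes lies on the minus strand: Hes1 at chr11:84213046-84213295, Notch4 at chr20:4189073-4189322, Dll1 at chr1:64993275-64993524 and Jag1 at chr3:144894884-144895133.
Hes1: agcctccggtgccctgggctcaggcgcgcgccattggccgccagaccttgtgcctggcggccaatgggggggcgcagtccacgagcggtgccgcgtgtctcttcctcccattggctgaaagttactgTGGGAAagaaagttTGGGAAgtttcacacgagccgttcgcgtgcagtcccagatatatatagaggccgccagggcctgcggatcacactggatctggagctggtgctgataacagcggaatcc
Notch4: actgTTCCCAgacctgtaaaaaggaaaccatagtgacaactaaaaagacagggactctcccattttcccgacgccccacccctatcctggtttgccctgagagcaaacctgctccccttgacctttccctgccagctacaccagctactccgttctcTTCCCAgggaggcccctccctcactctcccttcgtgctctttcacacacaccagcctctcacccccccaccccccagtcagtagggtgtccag
Dll1: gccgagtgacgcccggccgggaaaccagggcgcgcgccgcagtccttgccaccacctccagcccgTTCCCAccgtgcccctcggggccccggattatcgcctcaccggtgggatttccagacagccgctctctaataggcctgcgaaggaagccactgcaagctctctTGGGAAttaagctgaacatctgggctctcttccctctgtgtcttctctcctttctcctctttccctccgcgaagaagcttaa
Jag1: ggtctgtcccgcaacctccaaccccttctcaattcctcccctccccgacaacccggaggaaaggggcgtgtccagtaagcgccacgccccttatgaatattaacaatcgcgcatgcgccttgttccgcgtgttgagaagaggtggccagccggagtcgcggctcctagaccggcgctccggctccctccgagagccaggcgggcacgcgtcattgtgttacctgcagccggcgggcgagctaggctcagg

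The Hes1 window held 2 copies of the core on the same strand, at bases -123 and -109 from the gene start, the first of them inside the longer word GTGGGAA. The Dll1 window held 1 copy on each strand, at -185 and -82, with the longer word around the first. The Notch4 window held 2 copies on the opposite strand, at -246 and -93, and the Jag1 window held none. Over 300 bases, from 250 before to 50 after the start, 9 of the 10 genes had a RefSeq window and 4 of these held the core on either strand, the fourth being Notch3, at 43 bases after the start. The core stood in 25.7% of all 33469 rat promoter windows of that length and the longer word in 6.29%, so a match is a description and not evidence of binding. The interferon gamma activated word TTCNNNGAA stood in the Notch3 window only (8.87% of all windows), the core of the interferon-stimulated response element in none of the 9 (3.92%), the kappa B consensus in those of Notch2, Notch4, Jag2 and Hes1 (4.18%), and the HES-binding N box CACNAG in those of Notch1, Notch3, Notch4 and Hes1 (43.1%), where a pair of its matches in Notch1 overlap.

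Libraries held 23291125 to 31992709 counts. CPM below are counts per 1000000, corrected between libraries with the trimmed mean of M-values. Changes are log2 fold changes ± their standard error from edgeR's quasi-likelihood test with Benjamini-Hochberg adjusted p, run over the 13556 genes that reached 10 counts in 4 or more libraries. Levels with ± are means and SD over the 4 rats. The words rose, fell and called are kept for an adjusted p below 0.05. Jag2 did not reach the count filter, and 9 of the 10 genes were tested. Hey1 passed it only through 3 D10 libraries and 1 M0CM library, and Dll1 only through 4 Pol1 and 2 M1CM libraries. In bulk RNA, fewer cells that express a gene and less RNA of it per cell cannot be told apart.

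In M1CM the Notch genes were rearranged: the receptors Notch1 and Notch4 and the ligand Dll1 rose, and the receptor Notch3, the ligand Jag1 and the targets Hes1, Hey1 and Heyl fell, relative to D10. These are 8 of the 9 tested genes, 3 higher and 5 lower, where 44.4% of all tested genes were called (23.3% higher and 21.1% lower). The 8 include Hey1 and Dll1, which passed the count filter mostly or only through conditions where they stood high. Both are also among the Pol1 calls below. Between the M1CM and D10 libraries the CPM ranges did not overlap for 6 of the 10 genes, 1 higher and 5 lower, against 35.9% of all tested genes (19.1% higher and 16.8% lower). In Pol1, 7 of the 9 were called against D10, 2 higher (Notch1 and Dll1) and 5 lower (Notch3, Jag1, Hes1, Hey1 and Heyl), against 18.6% of all genes (10.6% higher and 8.09% lower). For 6 of the 10 genes the Pol1 and D10 ranges did not overlap, 2 higher and 4 lower, against 23% of all genes (12.9% higher and 10.1% lower). In M0CM none of the 9 was called by edgeR or by DESeq2, where edgeR called 0.14% of all genes (0.125% higher and 0.0148% lower). In edgeR 2 of the 9 had an unadjusted p below 0.05, as did 650 of all 13556 tested genes. No M0CM range stood clear of D10, against 3.72% of all genes.

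**Figure D1:**
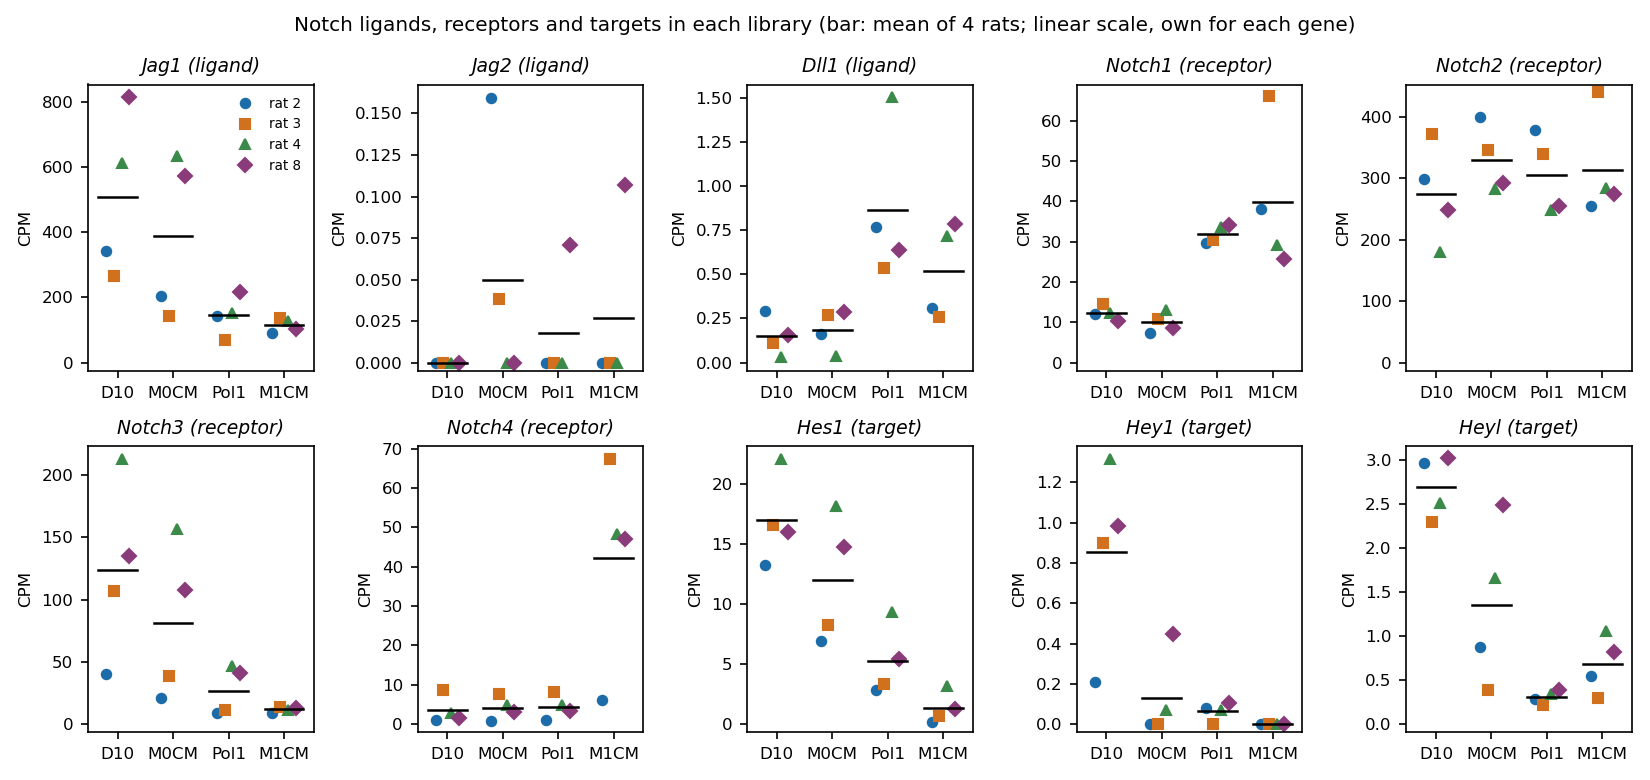
CPM of each gene (vertical axis, linear, its own scale for each gene) in the 16 libraries by condition (horizontal axis), with 1 symbol for each rat and a bar at the mean of the 4 rats. Notch1 stood higher in every Pol1 and M1CM library than in any D10 library, Notch4 was high in 3 of 4 M1CM libraries, and Hes1 and Jag1 were lower in each M1CM library than in any D10 library.

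Jag1, a membrane-bound ligand, had the highest FPKM of these genes in D10. In rats 2, 3, 4 and 8 it stood at 343, 265, 611 and 815 CPM in D10 and at 92.0, 138, 128 and 103 CPM in M1CM. The D10 libraries of rats 4 and 8 lay above those of rats 2 and 3, whereas the M1CM libraries lay close together and below all of D10. The fall was 4.42-fold (log2 change -2.14 ± 0.49, adjusted p = 0.00242), seen in 4 of 4 rats.

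In Pol1, Jag1 was at 144, 68.4, 153 and 217 CPM in the same order of rats. It fell relative to D10 there as well (log2 change -1.80 ± 0.48, adjusted p = 0.0167), with ranges that did not overlap, but the call was lost without rat 4 (adjusted p = 0.100) or rat 8 (0.0666). A fit with a term for the rat called Jag1 too (adjusted p = 0.00109). In M0CM the rats stood apart as in D10, at 204, 143, 634 and 573 CPM, and no change was detected (log2 change -0.39 ± 0.47). M1CM and Pol1 did not differ in Jag1 beyond the spread (log2 change -0.34 ± 0.47, adjusted p = 0.64).

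The other ligands were rare. Dll1, a Delta-type ligand, had few counts: in rats 2, 3, 4 and 8, D10 held 7, 3, 1 and 5, M1CM held 8, 6, 19 and 22, and Pol1 held 19, 15, 44 and 18. Each Pol1 library thus lay above each D10 library, while M1CM overlapped with D10. In CPM it rose from 0.149 ± 0.109 to 0.863 ± 0.437 in Pol1 (SD, n = 4; log2 change 2.54 ± 0.64, adjusted p = 0.0118) and to 0.517 ± 0.273 in M1CM (log2 change 1.81 ± 0.64, adjusted p = 0.0328). These calls rest on few counts, and Dll1 passed the count filter only through Pol1 and M1CM libraries. The call in M1CM was lost without rat 3 (adjusted p = 0.0706), rat 4 (0.105) or rat 8 (0.162) and in a fit of M1CM and D10 alone (0.0618), and that in Pol1 without rat 3 (0.0503), rat 4 (0.0685) or rat 8 (0.0565). Dll1 kept both calls with a term for the rat (adjusted p = 0.0312 in M1CM and 0.00638 in Pol1).

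Jag2, the second Jagged-type ligand, had 10 counts in the 16 libraries together: 4 and 1 in M0CM of rats 2 and 3, 2 in Pol1 of rat 8 and 3 in M1CM of rat 8. The D10 libraries had none, which over the group allows up to 3 counts. The remaining Delta-type ligands were rare as well: Dll3 had 3 to 12 counts per condition and Dll4 had none in any library. Neither was tested.

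Among the receptors, Notch1 rose in both inflammatory media. In D10 it stood at 11.96, 14.5, 12.2 and 10.3 CPM in rats 2, 3, 4 and 8, in Pol1 at 29.7, 30.3, 33.6 and 34.1 CPM, and in M1CM at 38.1, 66.1, 29.1 and 25.7 CPM. No Pol1 or M1CM library overlapped with D10, and the M1CM library of rat 3 was the highest. The rise was 2.61-fold in Pol1 (log2 change 1.38 ± 0.25, adjusted p = 0.00134) and 3.24-fold in M1CM (log2 change 1.70 ± 0.26, adjusted p = 8.09e-05).

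M0CM, at 7.34, 10.8, 13.1 and 8.69 CPM, overlapped with D10 for Notch1 (log2 change -0.29 ± 0.25). M1CM and Pol1 did not differ in it beyond the spread (log2 change 0.31 ± 0.25, adjusted p = 0.388), and that difference turned to -0.070 without rat 3. Notch1 was higher in M1CM than in M0CM as well (log2 change 1.99 ± 0.26, adjusted p = 2.41e-05) and higher in Pol1 than in M0CM (log2 change 1.68 ± 0.26, adjusted p = 0.000358).

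Notch4, a receptor best known from endothelial cells in mouse, rose in M1CM and not in Pol1. Its D10 levels were 1.09, 8.67, 2.79 and 1.65 CPM in rats 2, 3, 4 and 8, and its M1CM levels were 6.02, 67.3, 48.3 and 47.1 CPM. Rat 2 was the lowest of the 4 in every condition, and its M1CM library lay within the D10 range, yet each rat rose against its own D10 library, by 2.47, 2.96, 4.12 and 4.83 on the log2 scale. The test gave a log2 change of 3.57 ± 0.86 (adjusted p = 0.00363), and without rat 2 it was 3.64 (adjusted p = 0.000669).

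In Pol1, Notch4 was at 1.05, 8.15, 4.95 and 3.34 CPM, which did not differ from D10 beyond the spread (log2 change 0.31 ± 0.81, adjusted p = 0.845). The direct comparison of M1CM with Pol1 gave a log2 change of 3.26 ± 0.85 (adjusted p = 0.0115), higher in 4 of 4 rats. That call was lost without rat 4 (adjusted p = 0.0891) or rat 8 (0.0821). Notch4 kept it in a fit with a term for the rat (adjusted p = 9.19e-07). Against M0CM (4.13 ± 2.94 CPM) Notch4 was also higher in M1CM (log2 change 3.35 ± 0.85, adjusted p = 0.00589).

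Notch3, the receptor of mural cells, moved the other way. In D10 it stood at 40.6, 107, 213 and 135 CPM in rats 2, 3, 4 and 8 and in M1CM at 9.30, 14.1, 11.1 and 12.9 CPM. The D10 libraries spread over a wide range, and each M1CM library lay below all of them. The fall was 10.5-fold (log2 change -3.39 ± 0.70, adjusted p = 0.00118).

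In Pol1 the rats split for Notch3, with 8.51 and 11.02 CPM in rats 2 and 3 and 46.4 and 40.7 CPM in rats 4 and 8, and the last pair reached into the D10 range. Notch3 fell relative to D10 (log2 change -2.22 ± 0.66, adjusted p = 0.0304, lower in 4 of 4 rats). The call was lost without rat 3 (adjusted p = 0.138), rat 4 (0.0806) or rat 8 (0.102), and in a fit of Pol1 and D10 alone (0.0515). Notch3 kept it in a fit with a term for the rat (adjusted p = 0.000227). M0CM, at 21.1, 39.0, 157 and 108 CPM, was lower than D10 in 4 of 4 rats but not past the threshold (log2 change -0.61 ± 0.64).

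Notch2 was the steady receptor. D10 libraries held between 179 and 372 CPM, M0CM libraries between 282 and 400.4 CPM, Pol1 libraries between 248 and 378 CPM and M1CM libraries between 255 and 439.7 CPM, and the ranges of all conditions overlapped. The log2 change against D10 was 0.19 ± 0.23 in M1CM, 0.15 ± 0.23 in Pol1 and 0.27 ± 0.23 in M0CM. None of the 6 comparisons among the conditions called it.

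**Figure D2:**
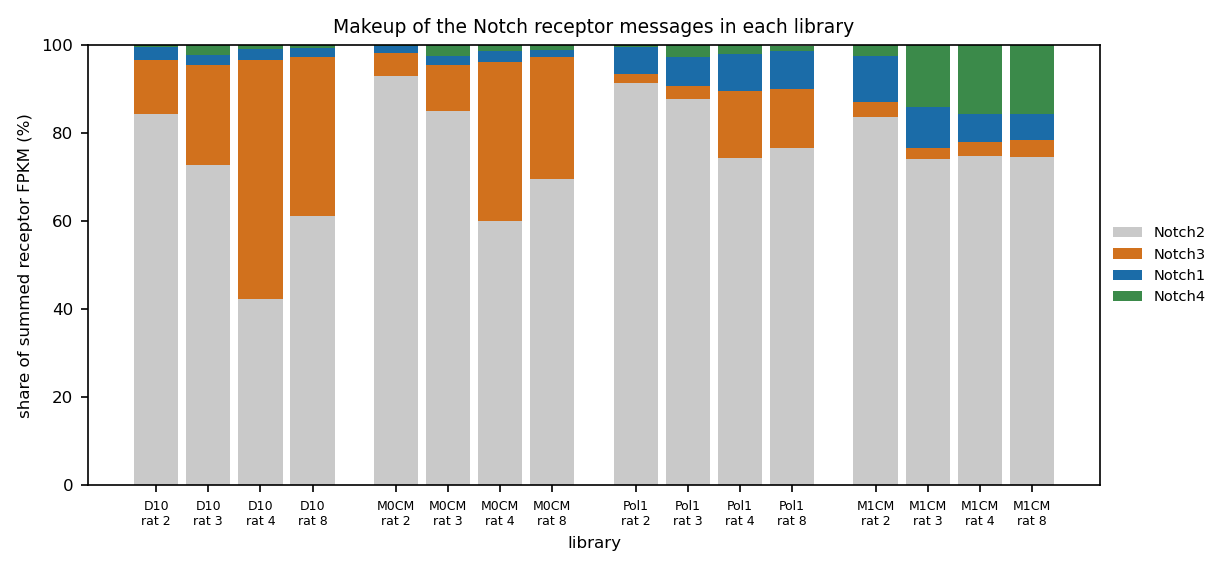
Share of each receptor in the summed FPKM of Notch1, Notch2, Notch3 and Notch4 (vertical axis, percent) in each of the 16 libraries (horizontal axis, by condition and rat). Notch3 took 12.4% to 54.5% in D10 and 2.58% to 3.797% in M1CM, where Notch4 took 2.42% to 15.7%.

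Per length, in the deposited FPKM, the receptor messages summed to 52.4 ± 8.3 in D10 and 51.8 ± 16.5 in M1CM, while their makeup differed. Notch3 took 31.5% ± 18.2 of that sum in D10 and 3.22% ± 0.50 in M1CM. Notch4 went from 0.939% ± 0.780 to 11.9% ± 6.4 and Notch1 from 2.46% ± 0.29 to 8.08% ± 2.25. Notch2 took 65.1% ± 18.0 in D10 and 76.8% ± 4.6 in M1CM. These shares carry the same libraries as the tests above and were given no test of their own.

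Hes1, the best studied target, fell in both inflammatory media and lay lowest in M1CM. In rats 2, 3, 4 and 8 it stood at 13.2, 16.6, 22.0 and 16.002 CPM in D10, at 2.80, 3.30, 9.36 and 5.44 CPM in Pol1 and at 0.193, 0.642, 3.17 and 1.21 CPM in M1CM. Pol1 and D10 did not overlap, nor did M1CM and D10, and in each rat M1CM was lower than Pol1. Relative to D10 the fall was 12.9-fold in M1CM (log2 change -3.69 ± 0.62, adjusted p = 0.000222) and 3.24-fold in Pol1 (log2 change -1.70 ± 0.56, adjusted p = 0.0480).

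The Pol1 call of Hes1 sat at the threshold and was lost without rat 2 (adjusted p = 0.0616), rat 3 (0.195) or rat 8 (0.180), with library totals alone (0.0654) and with no count filter (0.0548). With a term for the rat it stood further from the threshold (adjusted p = 0.000175). M1CM lay 3.98-fold below Pol1 (log2 change -1.99 ± 0.60, adjusted p = 0.0246), a call that was lost without rat 3 (adjusted p = 0.0892) or rat 8 (0.132) and in a fit of these 2 conditions alone (0.0935). The fit with a term for the rat gave an adjusted p of 0.000181 there. Hes1 in M0CM, at 6.90, 8.23, 18.1 and 14.7 CPM, was lower than in D10 in 4 of 4 rats without passing the test (log2 change -0.50 ± 0.54), and M1CM was 9.11-fold lower than M0CM (adjusted p = 0.000765).

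Hey1, a related repressor, had 5, 24, 42 and 31 counts in the D10 libraries and none in any M1CM library. With a floor of 3 counts over the M1CM group, it was at least 30.9-fold lower in M1CM (adjusted p = 0.00232). Hey1 passed the count filter mostly through D10, so this p adds little to the counts themselves. In Pol1 Hey1 had 2, 0, 2 and 3 counts and fell relative to D10 (log2 change -3.66 ± 1.06, adjusted p = 0.0319), a call lost without rat 3 (adjusted p = 0.104) or rat 4 (0.178). Hey1 kept that call in a fit with a term for the rat (adjusted p = 0.00574). In M0CM its counts were 0, 0, 2 and 11, lower than D10 in 4 of 4 rats by CPM, and the test against D10 did not pass (unadjusted p = 0.0176, adjusted p = 0.841).

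Heyl, another HEY family target, fell in both inflammatory media and had the lower mean in Pol1. In rats 2, 3, 4 and 8 it stood at 2.97, 2.29, 2.51 and 3.02 CPM in D10, 0.284, 0.215, 0.342 and 0.391 CPM in Pol1, and 0.540, 0.300, 1.06 and 0.821 CPM in M1CM. Both inflammatory media lay below all of D10. The fall was 8.63-fold in Pol1 (log2 change -3.11 ± 0.50, adjusted p = 0.000505) and 3.93-fold in M1CM (log2 change -1.97 ± 0.47, adjusted p = 0.00341). M1CM was above Pol1 in 4 of 4 rats, which passed the test with a term for the rat (adjusted p = 0.0424) and not without it (log2 change 1.14 ± 0.50, adjusted p = 0.116). In M0CM, at 0.877, 0.385, 1.66 and 2.49 CPM, Heyl was lower than in D10 in 4 of 4 rats, with ranges that overlapped through rat 8. The test did not pass after adjustment (log2 change -0.99 ± 0.45, unadjusted p = 0.0447). A separate fit with a term for the rat gave a log2 change of -1.18 and did not pass either (adjusted p = 0.105).

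**Figure D3:**
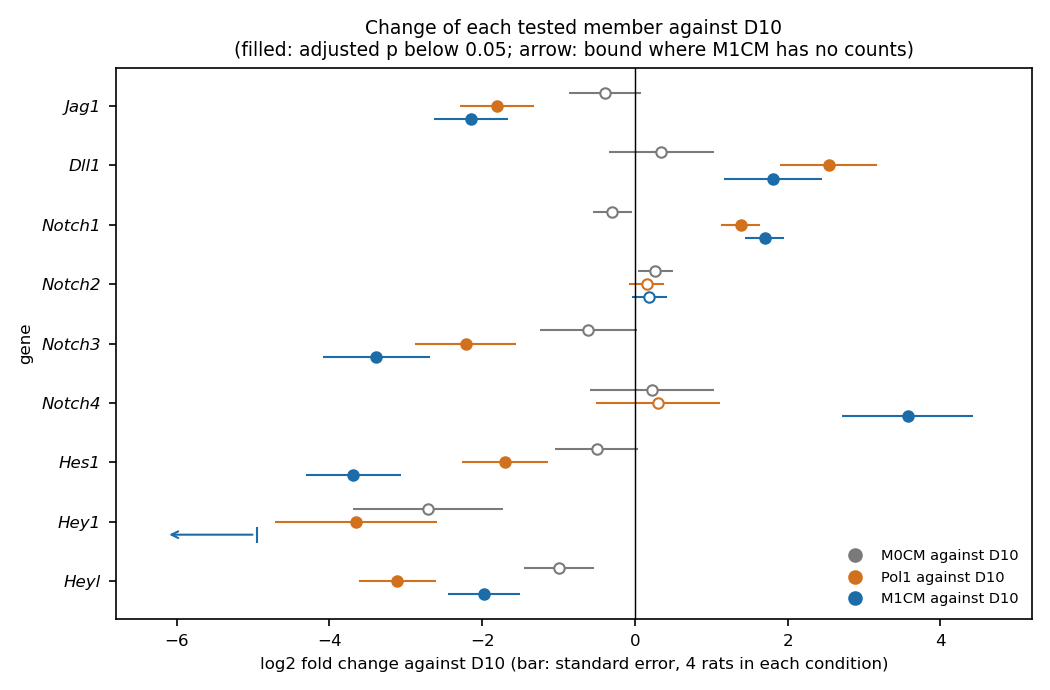
Log2 fold change against D10 (horizontal axis) of the 9 tested genes (vertical axis) in M0CM, Pol1 and M1CM, with standard errors over 4 rats in each condition and filled symbols where the adjusted p was below 0.05. Notch4 is filled in M1CM only (3.57, against 0.31 in Pol1), no M0CM symbol is filled, and the arrow of Hey1 is the bound from a floor of 3 counts, since M1CM held none.

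The comparisons among the conditioned media repeat part of this picture, and they share libraries with those above. M1CM against Pol1 called 2 of 9 genes, Notch4 higher and Hes1 lower, where 25.1% of all genes were called (13.8% higher and 11.3% lower), and the ranges overlapped for each of the 10, while they stood apart for 24.3% of all genes. M1CM against M0CM called 5 of 9, Notch1 and Notch4 higher and Notch3, Jag1 and Hes1 lower, against 40.3% of all genes (21.5% higher and 18.8% lower), and the ranges of 4 of the 10 stood apart (35.8% of all genes). The call of Jag1 there was lost without rat 4 (adjusted p = 0.0874) or rat 8 (0.0622). It held in a fit with a term for the rat (adjusted p = 0.00257). With a term for the rat, 7 of 9 were called, where 52.3% of all genes were. Hey1 and Heyl were then lower too (adjusted p = 0.0464 and 0.0394, against 0.0586 and 0.112 without it). That Hey1 call rests on 13 counts in M0CM, 11 of them in rat 8, and 0 in M1CM.

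Pol1 against M0CM called 3 of 9, Notch1 and Dll1 higher and Heyl lower, against 14.1% of all genes (8.38% higher and 5.67% lower), and the ranges of Notch1 and Dll1 stood apart (23.2% of all genes). Dll1 lost that call without any one of the rats (adjusted p of 0.0620 to 0.163), and Heyl without rat 4 (0.0875) or rat 8 (0.0896). Both kept their calls in a fit with a term for the rat (adjusted p = 0.0170 for Dll1 and 0.00129 for Heyl). With a term for the rat, 6 of 9 were called, where 26.5% of all genes were: Notch3, Jag1 and Hes1 were then also lower (adjusted p = 0.00457, 0.0102 and 0.00431, against 0.124, 0.0629 and 0.186 without it).

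Ranked by deposited FPKM, which allows levels of different genes to be compared, D10 was led by Jag1 (90.3 ± 47.0), Notch2 (33.8 ± 9.5), Notch3 (16.8 ± 9.9) and Hes1 (11.6 ± 2.7). The ranges of Notch2 and Notch3 overlapped, as did those of Notch3 and Hes1, while Jag1 stood above Notch2 without overlap. Notch1 (1.28 ± 0.17) and Hey1 (1.13 ± 0.63) followed with overlapping ranges, then Heyl (0.568 ± 0.077), Notch4 (0.536 ± 0.520) and Dll1 (0.0464 ± 0.0331). M0CM kept the first 4 places, with Jag1 and Notch2 overlapping.

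In M1CM the order by FPKM was Notch2 (39.4 ± 11.1), Jag1 (20.6 ± 4.35), Notch4 (6.58 ± 4.04), Notch1 (4.20 ± 1.95), Notch3 (1.62 ± 0.32) and Hes1 (0.924 ± 0.949). Notch2 and Jag1 stood apart, as did Jag1 and Notch4, and Notch4 overlapped with Notch1. Pol1 began with Notch2 (39.1 ± 7.3) and Jag1 (26.7 ± 11.4), whose ranges overlapped, followed by Notch3 (3.76 ± 2.82), Hes1 (3.73 ± 2.201) and Notch1 (3.47 ± 0.32). Jag1 made up 98.3% to 100.0% of the summed FPKM of the 3 ligands in every library.

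Other genes of the pathway were read from a list of 77, of which 70 were in the table and 61 were tested. In M1CM against D10, 16 rose, 17 fell and 28 were not called, where 44.4% of all genes were called (23.3% higher and 21.1% lower), and their median log2 fold change was -0.03, beside -0.0076 over all genes. With a term for the rat, 40 of the 61 were called in M1CM, where 55.3% of all genes were, and 22 in Pol1, where 32.4% were. In Pol1 against D10, 7 rose and 9 fell, where 18.6% of all genes were called, with 10 calls in all with library totals alone or without rat 2 and 6 without rat 4. In M0CM none was called (0 of 61 also with a term for the rat). The median over the 9 tested Notch genes was -1.97 in M1CM and -1.70 in Pol1.

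Rbpj and several genes of the enzymes that release the receptor domain rose in M1CM. Rbpj went from 155 ± 34 CPM in D10 to 969 ± 179 CPM in M1CM (log2 change 2.64 ± 0.20, adjusted p = 1.03e-07). In Pol1 it was at 217 ± 25 CPM, which passed the test against D10 with a term for the rat (adjusted p = 0.0329) and not without it (0.0974), and M1CM exceeded Pol1 (log2 change 2.16 ± 0.20). Of 15 tested genes of the nuclear complex and its corepressors, 5 rose and 3 fell in M1CM, among them the coactivator gene Maml3 (log2 fold change 1.49) and the RBPJ-binding genes Cir1 (1.06) and Snw1 (0.88), which rose.

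Of the 7 tested genes of ADAM and gamma-secretase cleavage, 4 rose and none fell in M1CM. Adam10, the other ADAM gene of that list, was not found in the deposited table by symbol and is not covered. Adam17, a sheddase, went from 80.2 ± 7.2 to 287 ± 43 CPM (log2 change 1.84 ± 0.15, adjusted p = 2.08e-07) and Psen2, a catalytic subunit of gamma-secretase, from 13.2 ± 1.0 to 69.1 ± 8.7 CPM (log2 change 2.39 ± 0.21, adjusted p = 3.47e-07). Both also rose in Pol1 (log2 fold change 0.80 and 1.52). Ncstn, another subunit gene, had a smaller rise (0.28) and was not called without rat 2 (adjusted p = 0.117) or rat 8 (0.0809).

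The receptor-modifying genes were mixed, with 1 rise and 3 falls among 6 tested in M1CM. Furin, whose protease makes the first cut in the receptor, rose from 187 ± 30 to 705 ± 310 CPM (log2 change 1.91 ± 0.26, adjusted p = 3.17e-05). Lfng, a Fringe glycosyltransferase that tunes which ligands a receptor answers, fell from 9.79 ± 3.68 to 2.28 ± 0.84 CPM (log2 change -2.10 ± 0.31, adjusted p = 6.83e-05). The related Rfng (-0.67) and the glycosyltransferase gene Eogt (-0.86) fell too, Eogt not without rat 2 (adjusted p = 0.0517) or rat 8 (0.0554).

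On the ligand side, 1 of the 4 ubiquitin ligase genes that drive ligand uptake was called in M1CM (2 with a term for the rat): Neurl1b fell from 14.97 ± 7.4 to 0.556 ± 0.463 CPM (log2 change -4.73 ± 0.65, adjusted p = 3.71e-05). Of the 7 tested noncanonical ligands, Dlk2 fell (log2 fold change -3.24, with an adjusted p of 0.0627 without rat 4) and Nov rose (1.40), the latter not called without rat 3, rat 4 or rat 8 (adjusted p of 0.0764 to 0.125). Among the 7 tested inhibitors and ubiquitin ligases that act on Notch, 2 rose and 3 fell. Dtx3l, better known for its part in the interferon response, rose from 4.56 ± 2.50 to 237 ± 152 CPM (log2 change 5.70 ± 0.55, adjusted p = 9.43e-07), and Dtx2 rose by 0.97 while Dtx4 fell by 2.38 and Numbl by 0.43 on the log2 scale, Numbl with an adjusted p of 0.0520 without rat 8.

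The other targets did not move as a block with Hes1, Hey1 and Heyl. Of 6 tested in the HES, HEY and feedback list, 2 rose and 2 fell in M1CM. Nrarp, a feedback inhibitor that binds the Notch complex, rose from 0.205 ± 0.100 CPM in D10 to 3.57 ± 0.76 CPM in M1CM (log2 change 4.07 ± 0.52, adjusted p = 1.73e-05) and to 3.42 ± 1.03 CPM in Pol1 (log2 change 4.01 ± 0.52, adjusted p = 6.15e-05). Bhlhe40 rose (log2 fold change 1.49), whereas its relative Bhlhe41 (-1.55) and Hey2 (-3.66) fell, and Hey2 was not called without rat 2 or rat 4 (adjusted p = 0.114 and 0.144).

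Hes6 and Hes7 were not called (log2 fold change -0.06 and -0.15), and Hes2, Hes3, Hes5 and Helt did not reach the filter. Of the 9 other tested genes known as Notch targets in some tissue, 1 rose, Ccnd1 (log2 fold change 1.34), and 4 fell, Sox9 (-2.33), Snai2 (-1.96), Myc (-1.24) and Gata3 (-1.20). With a term for the rat, 8 of the 9 were called. Myc was not called without rat 2 (adjusted p = 0.0530), and each of these genes has other regulators as well.

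**Figure D4:**
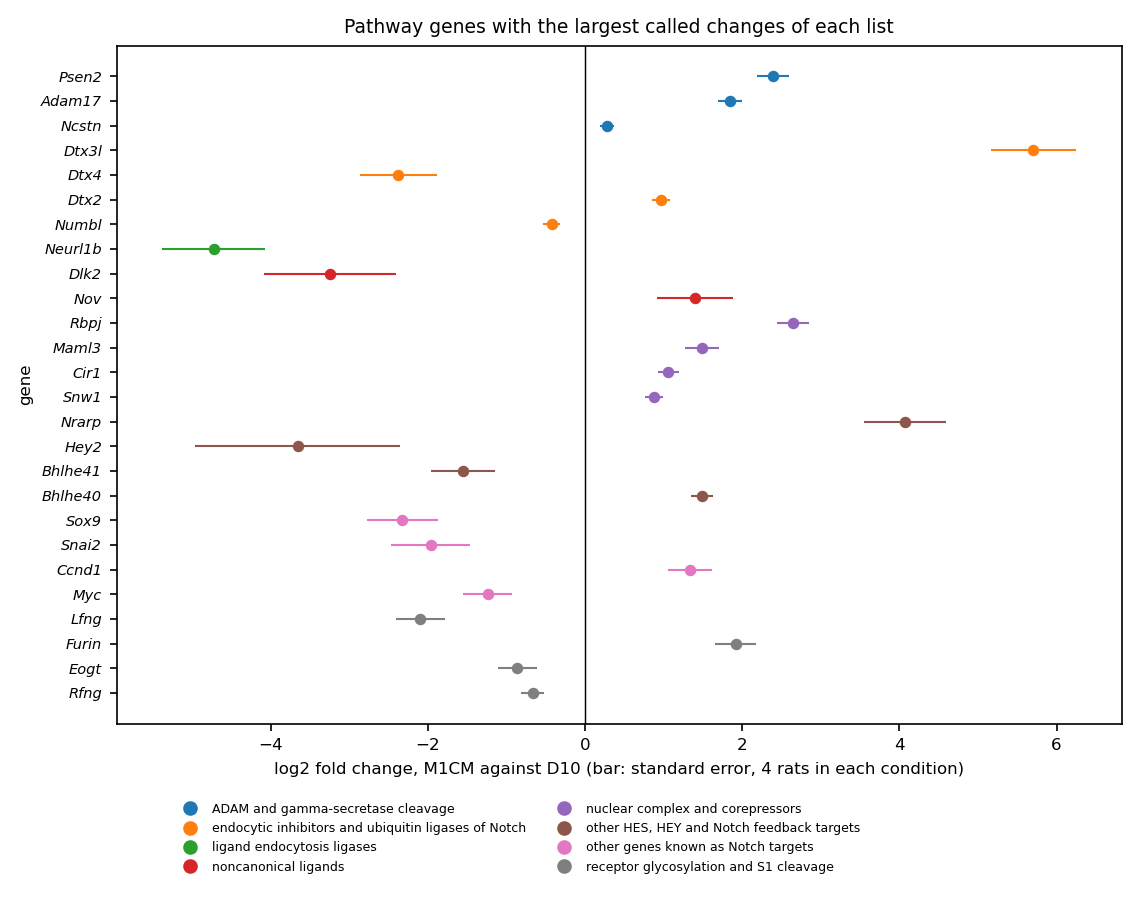
Log2 fold change in M1CM against D10 (horizontal axis) of the pathway genes with the largest called changes in each list (vertical axis, up to 4 per list, coloured by list), with standard errors over 4 rats in each condition. Dtx3l (5.70), Nrarp (4.07) and Rbpj (2.64) are the farthest to the right among those named in the text, and Neurl1b (-4.73) and Hey2 (-3.66) the farthest to the left.

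Markers of other cells were read beside these results. Of 9 tested mural markers, none rose and 5 fell in M1CM (Cnn1, Myh11, Tagln, Abcc9 and Cspg4). Acta2, also on the list, was not found in the deposited table by symbol. The 10 found summed to 4597 to 8025 CPM in D10 and 1054 to 1848 CPM in M1CM, lower beside the falls of Notch3, Jag1, Hey1 and Heyl. Tagln led that sum in D10 (3246 ± 827 CPM, and 356 ± 114 in M1CM). Next came Pdgfrb (1424 ± 448 and 882 ± 188 CPM), which is not among the 5 that fell. Cspg4 lost its call without rat 4 (adjusted p = 0.0926). In Pol1, 4 fell and the sum was 1996 to 3465 CPM. With a term for the rat, 9 of 9 were called in M1CM and 8 of 9 in Pol1, among them Des, at a log2 change of 0.70 in M1CM and 1.97 in Pol1. Whether mural-like cells or their state account for part of the Notch3 and Jag1 result was not tested.

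Of 5 tested endothelial markers, none rose and 2 fell in M1CM (Erg and Esam), and 5 of 5 were called with a term for the rat, among them Vwf, at a log2 change of 0.88. The summed level was 7.32 to 31.3 CPM in D10 and 3.74 to 12.2 CPM in M1CM. Markers below the count filter went both ways in their summed counts from D10 to M1CM: Pecam1 had 2 and 24, Tie1 0 and 11, Cdh5 0 and 4, Kdr 9 and 19, and Sox18 14 and 0, while Emcn and Sox17 had 0 in all conditions. Their part in the Notch4 result was not tested. The macrophage markers summed to 5.27 to 9.45 CPM in D10, 7.28 to 11.6 in Pol1, 19.0 to 23.3 in M0CM and 17.2 to 40.8 in M1CM. Of 8 tested, 4 rose and 2 fell in M1CM. In summed counts from D10 to M1CM, Cd68 had 28 and 426, Cybb 7 and 191, and Cd14 526 and 1782. Csf1r had 40 and 86, Lyz2 6 and 25, and Laptm5 24 and 39, whereas Lcp1 had 170 and 74 and Mrc1 13 and 0. Ptprc had 0 and 12, Adgre1 0 and 10, and Aif1 0 and 26, while Tyrobp had 0 in both. Their part in the Notch results was not tested. All 10 MSC markers were tested, with 3 rises in M1CM (Vcam1, Cd44 and Pdgfra) and 2 falls (Itgb1, which encodes the sorting marker CD29, and Col1a1), and Thy1 stood at 1311 ± 281 CPM in D10 and 1196 ± 202 CPM in M1CM. The MSC markers summed to 65771 to 100673 CPM in D10 and 33972 to 75912 CPM in M1CM, with medians of 86097 and 42215. Abundant genes weigh most in this sum. The median log2 change over the 10 markers went the other way, at 0.60 in M1CM against D10.

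Genes with the most similar profiles were sought over the 16 libraries, by the root mean square difference of centred log2 CPM. Nearest to Notch1 were Pml, an interferon-induced nuclear body gene (0.27), Asah2 (0.28) and Snx10 (0.31), where the median over all genes was 0.98. Nearest to Notch3 were Ppp1r9a (0.45), Macrod2 (0.47) and Ntrk3 (0.49), and nearest to Jag1 Arhgef39 (0.43), Cobll1 (0.45) and the actin crosslinker gene Actn4 (0.46). Hes1 lay nearest to Pgr (0.62), Mir145 (0.65) and Filip1l (0.70), and Heyl to Pxdc1 (0.59), Thsd4 (0.65) and Pald1 (0.69).

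Notch4 lay nearest to Twist2 (0.67), Itga2 (0.68) and Msln (0.77), where the median over all genes was 1.92, Dll1 to RT1-N3 (0.62), Kars (0.63) and the transcription factor gene Batf3 (0.64), and Hey1 to Dmd (0.83), Phldb2 (0.84) and Fam83d (0.87). All of these distances share the same 16 libraries and the same rats, and they are descriptions with no test.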

How the data were processed

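RNA was sequenced from MSCs of 4 rats in 4 media (16 libraries). Per the labels and the study's methods, the authors aligned reads with TopHat2 2.0.12 and Bowtie2 2.2.3 and made the deposited read counts per gene with HTSeq 0.6.1 (union mode, not normalized). The FPKM values deposited by the authors equal counts per kilobase and per 1000000 library counts. Whether counting used strand is not given in the sources used here, and of the 10 genes only Notch3 overlaps another listed gene, which has 0 counts. KEGG annotation stands only beside genes the authors called, so the name of Dll1 depends on those calls. The methods name Rnor 6.0, but 68 and 24 genes lie on contigs of an earlier assembly (AABR06 and JH620), so no coordinates of the table are printed. Columns with the authors' condition means and their own comparisons (normalized counts, fold changes, p-values and calls) were not used.

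Counts were tested with edgeR 4.0.16 in R 4.3.3 (quasi-likelihood F-test, trimmed mean of M-values, all 16 libraries, 1 term per condition, two-sided), after tests on simulated data. Standard errors are the log2 fold change divided by the root of F. Where a group had no counts, its fold is a bound set at 3 counts for the whole group, which covers counting error only. The same rats gave every condition: libraries of 1 rat deviated from their condition means alike (r of 0.33 to 0.728 over 24 pairs, -0.519 to 0.225 between rats, 16 of 16 libraries nearest to their own rat). A fit with a term for the rat is therefore given where it changes the call of one of the 10 genes or moves a printed count of calls by over 1.5 times. It is also given beside calls of these genes that were lost when 1 rat was left out. The fits that leave out a rat hold no term for the rat. The study's methods name no such term. Alternatives were DESeq2 1.42.0, other scalings, no filter, 2 conditions only and leaving out each rat.

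The 10 genes, the pathway and marker lists and the naming rule (all 10 genes, Dll3 and Dll4, up to 4 called genes per pathway list with the largest change in M1CM against D10, the 3 nearest profiles where condition means span at least 1 on the log2 scale, and markers that move with a result) were chosen with earlier results of these data known. Gata3, Hes6, Hes7 and the low HES genes were named after their values were seen. Promoters are from RefSeq (GRCr8), matched by symbol, with Hey1 not matched. 1 gene that the rule names is not reported here.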

Additional observations from a re-analysis of the deposited data

Results flagged for a closer look

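Of 38 groups of 4 libraries with any spread, 4 held a library far from the other 3 by Dixon's criterion, where chance gives about 1 in 20. The M1CM library of rat 3 had 439.687 CPM of Notch2, against 255 to 284 in the other M1CM libraries, and the same library had the highest Notch1 and Notch4. Without rat 3 the Notch2 change in M1CM against D10 was 0.16 and Notch2 stayed uncalled. The other 3 are counts near 0 in rat 8: Jag2 at 0.071065 CPM in Pol1 (2 counts) and 0.107129 CPM in M1CM (3 counts), with 0 in the other rats, and Hey1 at 0.448977 CPM in M0CM (11 counts), against 0 to 0.0705 CPM.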

How the results depend on the processing

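In M1CM against D10, 8 of 9 genes were called in most settings and 7 on the 2 conditions alone or without rat 3, 4 or 8, where Dll1 was lost. Over the 6 comparisons, 493 of the results of single genes kept direction and side of the threshold under the 10 alternatives, 33 lost the call, 9 gained it and 5 changed sign. None of those 5 had been called. Leaving out 1 rat at a time gave, in M1CM against Pol1, -0.070 to 0.51 for Notch1 (negative without rat 3) and -0.11 to 0.25 for Notch2 (negative without rat 3 or 4), in M1CM against M0CM -0.26 to 0.12 for Notch2 (positive without rat 2), and in Pol1 against M0CM -1.46 to 0.87 for Hey1 (positive without rat 8). For pathway genes and mural markers, added after seeing the data, 605 kept and 52 lost the call, and the pathway genes called in Pol1 against D10 went from 16 to 10 with library totals and to 6 to 11 without 1 rat.

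With the replicate block for the rat, calls over all genes went from 2528 to 4395 in Pol1 against D10, from 19 to 149 in M0CM against D10, from 3404 to 5336 in M1CM against Pol1 and from 1905 to 3591 in Pol1 against M0CM, where the Notch genes called went from 3 to 6. The block changed no call of a Notch gene beyond those printed beside the results. DESeq2 called 60 genes in M0CM against D10. In Pol1 against M0CM, DESeq2 called 2450 of the 13556 genes and 5 of the 9 Notch genes. On the 2 conditions alone, 2422 genes and 1 Notch gene were called in M1CM against Pol1. Leaving out 1 rat gave 1362 to 2004 genes and 3 to 6 Notch genes in Pol1 against D10, 0 to 7 genes in M0CM against D10 (415 to 637 at an unadjusted p below 0.05), 1729 to 2783 genes and 0 to 2 Notch genes in M1CM against Pol1, and 904 to 1370 genes and 1 to 2 Notch genes in Pol1 against M0CM. These fits hold fewer samples.

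With library totals alone, 69.0% of the calls in Pol1 against D10 were higher, against 56.6% with the main scaling. No scaling moved the median of all genes by over 0.1. The order of levels was the same with counts per kilobase. Depth limits Jag2, Dll1 and Hey1, where a few counts decide a library's value.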
